A study of Mus musculus with 12 samples.

Results

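The regions described here are 366 stretches of the mouse genome outside chromosome 12 that were open in one RAW264.7 line and not called open in another. A region is a stretch covered by overlapping or touching ATAC-seq peaks of any of 12 libraries. It was termed lost when it held a peak in 0 of 6 libraries of the Nur77 line and in 6 of 6 libraries of the GFP line. On chromosomes 1 to 11, 13 to 19 and X, 95310 merged regions were counted, and the lost ones made up 0.384% of them and 1.13% of the 32400 regions called in all 6 GFP libraries. The opposite pattern, a peak in 6 of 6 Nur77 libraries and in 0 of 6 GFP libraries, was met by 44 regions, 0.0462% of all. These calls chose the regions, so the difference between the lines is a description and carries no test.

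ATAC-seq uses a transposase to tag accessible DNA. RAW264.7 is a mouse macrophage cell line. The 4 groups of 3 libraries were Nur77 cells with lipopolysaccharide (LPS), untreated Nur77 cells, GFP cells with LPS and untreated GFP cells. Every library came from a stable line with a doxycycline-inducible transgene, for Nur77 or for green fluorescent protein, and all cells received 1 µg/ml doxycycline for 18 h. LPS, a bacterial endotoxin, was given at 500 ng/ml for 1 h. Induced Nur77 and any other difference between the stable lines cannot be told apart in this design, because every Nur77 library came from induced cells of that line. Nothing in the labels says that replicates were separate cultures, so the spread between them may be technical.

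Nur77, encoded by Nr4a1, is an orphan nuclear receptor that macrophages make quickly on activation, and it can bind DNA as a monomer. AP-1 is the family of Fos, Jun and related dimers that bind many macrophage enhancers, and the title of the study names AP-1 target genes as those through which Nur77 acts. Accessible sites are mostly of 2 kinds, promoters at gene starts and distal elements inside or between genes. Distal elements differ more between cell states than promoters do.

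Of the lost regions, 15 overlapped the promoter of a protein-coding gene in RefSeq (250 bases before to 50 after the start, build GRCm38.p6, which is mm10) and 11 overlapped that of a non-coding gene, with 25 regions in all. Sequence was at hand for these promoters and not for other lost regions. Those of the highest-ranking coding ones are shown, with that of the non-coding gene A530046M15Rik. Among the non-coding ones it held the most AP-1 matches but not the highest percentile (mean 47.44, against 66.05 for 1700025O08Rik). Capitals mark matches on either strand to 7 motifs, which may overlap: AP-1 (TGANTCA), the cAMP response element (TGACGTCA), the Nur77 element (AAAGGTCA), PU.1 (GAGGAAGT), NF-kB (GGG and CC separated by 5 bases of any kind), the CCAAT box (CCAAT) and the GC box (GGGCGG).
Klf6, chr13:5861239-5861538, plus strand: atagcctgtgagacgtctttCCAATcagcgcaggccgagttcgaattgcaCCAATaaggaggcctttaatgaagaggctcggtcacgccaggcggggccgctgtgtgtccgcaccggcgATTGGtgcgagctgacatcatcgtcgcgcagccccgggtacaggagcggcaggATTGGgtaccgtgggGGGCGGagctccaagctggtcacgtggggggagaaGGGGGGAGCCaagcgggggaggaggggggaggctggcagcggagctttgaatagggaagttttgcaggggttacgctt
Fam117a, chr11:95336768-95337067, plus strand: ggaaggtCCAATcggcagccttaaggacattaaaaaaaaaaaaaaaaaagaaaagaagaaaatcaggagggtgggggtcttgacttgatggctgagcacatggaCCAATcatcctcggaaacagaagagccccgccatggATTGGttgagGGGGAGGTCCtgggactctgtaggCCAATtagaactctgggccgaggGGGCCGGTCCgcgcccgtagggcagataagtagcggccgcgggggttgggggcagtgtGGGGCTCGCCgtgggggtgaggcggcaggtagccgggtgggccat
Rnd3, chr2:51149062-51149361, minus strand: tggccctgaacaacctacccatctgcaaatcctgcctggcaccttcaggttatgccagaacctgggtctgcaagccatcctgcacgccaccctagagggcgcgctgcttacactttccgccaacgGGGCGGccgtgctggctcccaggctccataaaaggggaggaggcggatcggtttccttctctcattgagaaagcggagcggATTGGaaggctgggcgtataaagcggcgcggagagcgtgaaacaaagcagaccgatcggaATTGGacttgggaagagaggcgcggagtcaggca
A530046M15Rik, chr13:15806993-15807292, plus strand: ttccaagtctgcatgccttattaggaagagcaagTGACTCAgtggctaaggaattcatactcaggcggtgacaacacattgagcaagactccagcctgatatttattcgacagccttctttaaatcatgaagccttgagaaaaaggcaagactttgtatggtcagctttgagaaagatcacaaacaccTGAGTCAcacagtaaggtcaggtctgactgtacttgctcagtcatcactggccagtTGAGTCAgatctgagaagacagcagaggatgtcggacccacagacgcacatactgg

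In the 15 coding promoters, the AP-1, cAMP response, Nur77 and PU.1 motifs had 0 matches. Of all 20322 coding promoters on these chromosomes, 7.08% held AP-1, 2.24% the cAMP response element, 1.32% the Nur77 element and 3.15% PU.1. NF-kB letters were in 12 of the 15, against 57.5% of all and 70.1% of the 9854 overlapped by a region called in all 12 libraries. The GC box was in 8, against 46.5% and 67.8%, and the CCAAT box in 4, against 38.5% and 38.6%. Klf6 held the CCAAT box 4 times and the GC box once. In the 12 non-coding promoters the AP-1 letters occurred in 4, against 9.22% of all 11020 such promoters. These 4 lay in 3 lost regions, since 1700025O08Rik and Gm30886 share 1 match. A530046M15Rik held 3 matches, and Gm5122 held 1. No share was taken over non-coding promoters overlapped by a region called in all 12 libraries, so the 9.22% is not a value for open promoters. All motif counts here are small, and a match is a description of letters, not a bound site.

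The check of the cell type used the starts of marker genes. All 6 macrophage markers in the promoter table (Cd68, Lyz2, Itgam, Cebpa, Cebpb and Fcgr1) had a peak within 1000 bp of the start in all 12 libraries. None of the 4 T cell, 2 B cell, 2 fibroblast and 3 epithelial markers had one in all 12. Among these, the B cell marker Cd79a had one in 4 libraries and the T cell marker Lck in 2, and the others in none. Of the 3 neuron markers in the table, Tubb3 had one in all 12. The lists held 36184 to 59858 peaks in the Nur77 line and 48275 to 81467 in the GFP line. The background height, the read depth that the authors' folds imply, ran from 0.402 to 1.254 reads in Nur77 lists and from 0.411 to 1.45 in GFP lists. The weakest listed peak had 5 to 8 reads at its summit, so a missing call is a signal below that level and not proof of closed chromatin.

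How prominent a lost region was is given as its percentile, the rank of its peak by the authors' -log10 q within its own list, with 100 as the strongest. Averaged over the 6 GFP libraries, the lost regions lay between 7.26 and 88.69, with a median of 40.52, against 69.33 for all regions called in the 6 GFP libraries. The quartiles were 30.98 and 53.51. The 366 lost regions are therefore mostly weak to middling peaks, with a tail of prominent ones. Per library, their median percentile was 28.43, 38.13 and 59.04 in the LPS-treated GFP libraries and 36.35, 44.42 and 45.15 in the untreated ones. It was lowest in LPS-treated GFP replicate 1, the shallowest GFP list, and highest in replicate 3, the deepest.

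**Figure D1:**
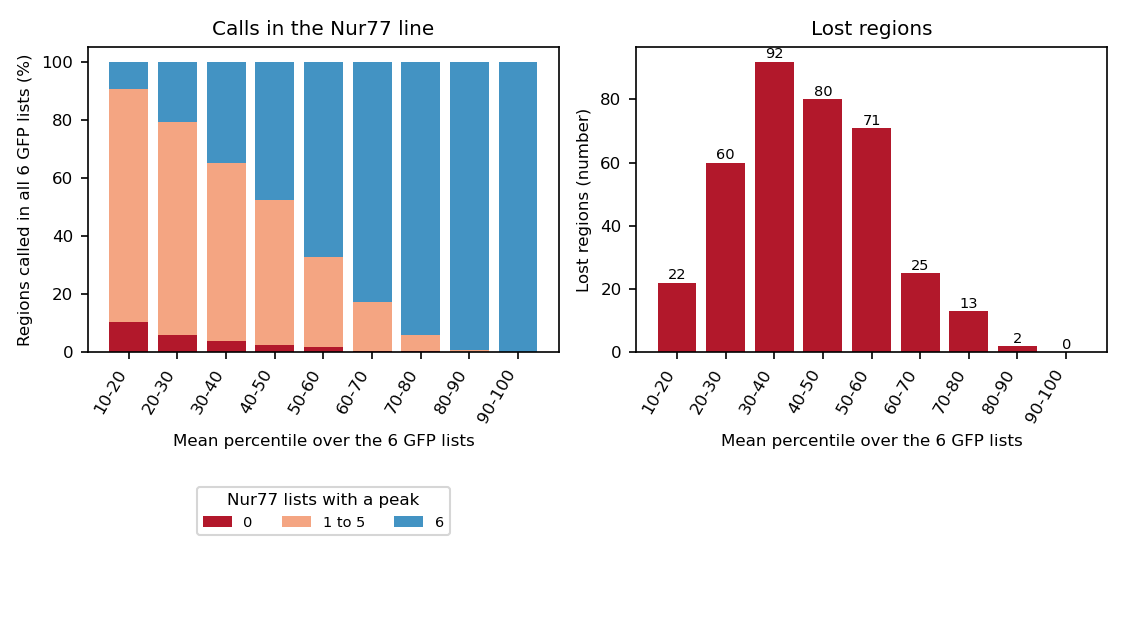
Regions called in all 6 GFP libraries, grouped by mean percentile over those libraries in steps of 10 (horizontal axes). Left, the share (%) with a peak in 0, in 1 to 5 and in 6 Nur77 lists; right, the number of lost regions. The share called in 6 Nur77 lists climbs from 9.3% at percentiles 10 to 20 to 94.0% at 70 to 80, and the lost ones are most numerous, 92, at 30 to 40. The 4 regions under 10 are not drawn.

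Regions that were prominent in the GFP line were called more often in the Nur77 line. At percentiles 20 to 30, 60 of 1039 regions called in all GFP libraries were lost (5.77%) and 20.6% were called in all 6 Nur77 libraries. At 50 to 60, 71 of 4369 were lost (1.63%) and 67.3% were called in all 6. At 70 to 80, 13 of 5126 were lost (0.254%) and 94.0% were called in all 6. At 80 to 90, 2 of 5486 were lost. Above 90, 0 of 5261 regions were lost. The prominent lost regions are thus the ones whose absence in the Nur77 lists differs most from what regions of similar rank showed. In 318 of the 366 (86.9%) every GFP peak had a fold enrichment above 4.34, the highest of the weakest folds listed in the 6 Nur77 libraries. In 37 (10.1%) it was at least 10 in every GFP library. The rule itself required a listed peak in each GFP library, where the weakest listed folds were 3.67 to 4.25. The count above 4.34 was therefore largely set by the rule. Shares over all regions called in the 6 GFP libraries are not given, so neither count sets the lost regions apart.

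The most prominent lost region lay at the start of Klf6, which encodes a zinc finger transcription factor of the Krüppel-like family (gene 23849, chromosome 13, 5860572 to 5862494, 1923 bp). No Nur77 library had a peak there. Its percentile was 87.58, 89.48 and 91.92 in LPS-treated GFP libraries and 83.97, 89.77 and 89.42 in untreated ones, a mean of 88.69 ± 2.69 (SD, n = 6). The peak was high in all 6 libraries, and the 2 treatments overlapped. The authors' fold at the summit was 32.6, 46.0 and 62.0 after LPS and 38.6, 54.5 and 54.7 without. These folds stand for 45, 76 and 151 reads after LPS and 73, 106 and 116 reads without, against a weakest listed peak of 5 to 8 reads in the Nur77 lists. The region holds the annotated start of the gene, whose promoter sequence is shown above.

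The other strong regions of the Klf6 locus were called in both lines, and 3 weak ones within 25 kb had 1 or 2 GFP calls and no Nur77 call. A region inside the gene from 5863207 to 5867709 had a peak in all 12 libraries, at a mean percentile of 69.9 in Nur77 libraries and 64.8 in GFP libraries. At the other end of the gene, 5869671 to 5873341 had means of 88.3 in the Nur77 line and 91.2 in the GFP line. Upstream, 5844000 to 5846319 had 78.9 in the Nur77 line and 84.6 in the GFP line. The ranges of the lines overlapped at all 3. The nearest Nur77 peak to the lost region was 817 bp away, and the stretch without a Nur77 peak spanned 17.0 kb, most of it upstream of the gene.

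**Figure D2:**
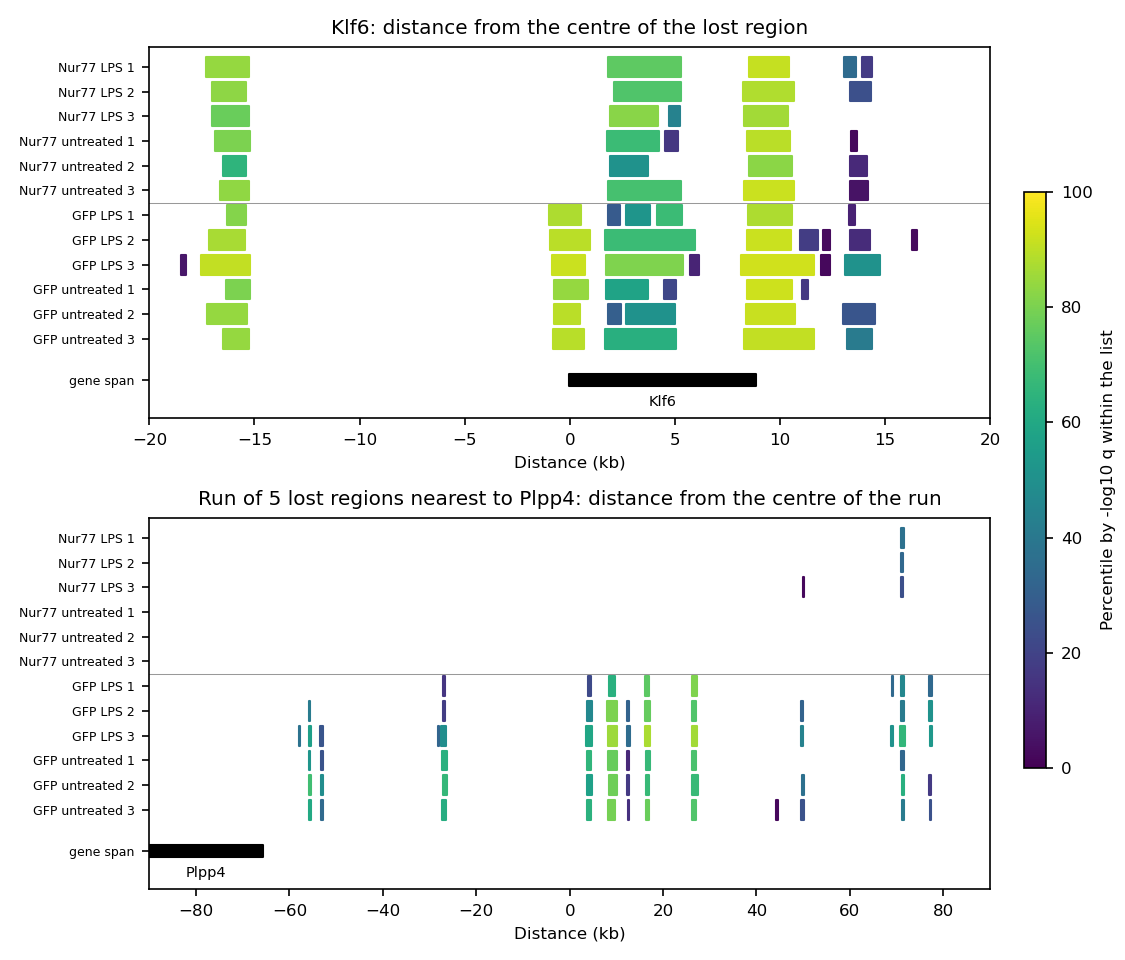
Peaks of each library (rows; Nur77 libraries above the grey line, GFP libraries below) at Klf6 and at the 5 neighbouring lost regions nearest to Plpp4. The horizontal axis is the distance in kb from the centre of the Klf6 region or of the run, bar colour is the percentile within the list, and black bars are gene spans. At Klf6 the block at 0 kb is the only one present in all 6 GFP rows and in no Nur77 row. In the other locus the Nur77 rows are empty from the left edge to 49.9 kb, which is part of the 175.0 kb without a Nur77 peak.

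Ppargc1a, the gene of the coactivator PGC-1alpha that drives mitochondrial biogenesis, held 2 lost regions. The stronger one (gene 19017, chromosome 5, 51591146 to 51592420) had percentiles of 77.78, 76.46 and 85.62 in LPS-treated GFP libraries and 85.53, 83.13 and 84.66 in untreated ones (mean 82.2 ± 4.06, SD, n = 6). The weaker one, 51545024 to 51546086, averaged 39.36 ± 9.57 (SD, n = 6). A neighbour (51607444 to 51608506) had percentiles of 27.4 to 41.3 in the 5 Nur77 libraries that called it and of 72.4 to 83.0 in the 6 GFP libraries, with no overlap between the lines. Another neighbour, 51552007 to 51553105, was called in 1 Nur77 library at percentile 5.0 and in 6 GFP libraries at a mean of 24.7. Several sites of this gene thus ranked lower within their own lists or were missing in the Nur77 lists. List length differed between the lines, and these percentiles shift with it. In lists trimmed to the shortest, the stronger lost region averaged 70.21 in GFP libraries.

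Further prominent lost regions lay near Ankdd1a (3.2 kb away, 76.83 ± 4.85, n = 6), near Adcyap1r1, the gene of a receptor for the neuropeptide PACAP (75.3 kb, 76.4 ± 9.74, n = 6), and between Wwox and Maf (70.1 kb from Wwox, 73.99 ± 6.15, n = 6). Inside genes, lost regions of like rank lay in Setd4, which encodes a SET-domain methyltransferase (73.26 ± 4.88, n = 6), in the zinc finger gene Zfp493 (71.59 ± 8.87, n = 6) and in Ccbe1, a gene of lymphatic vessel growth (71.8 ± 7.82, n = 6). A region inside Pde7b, the gene of a cAMP-degrading phosphodiesterase, averaged 70.06 ± 11.96 (n = 6), and one inside Opcml, a cell adhesion gene, 67.8 ± 12.6 (n = 6). Here and elsewhere, n = 6 pools LPS-treated and untreated GFP libraries, so the SD includes any difference between the treatments. Others among the 20 highest lay near Tle3, a corepressor gene, near Cd83 and Pou3f2 in gene deserts, and inside Ptpn3, a tyrosine phosphatase gene, at means of 66.05 to 67.5.

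**Figure D3:**
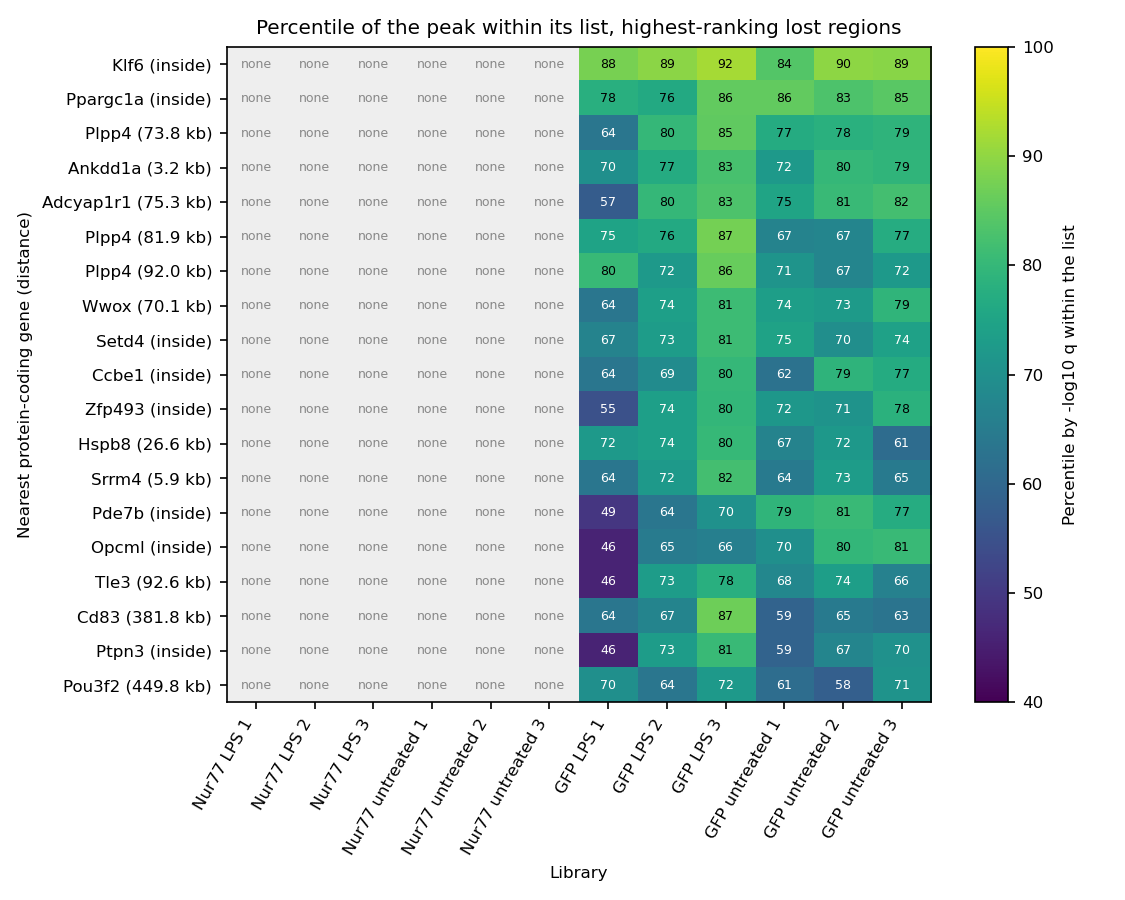
Percentile of the peak within its list (colour and number) in 12 libraries (columns) for 19 of the 20 lost regions with the highest mean over the GFP libraries (rows, named by the nearest protein-coding gene and its distance). Grey cells marked none are libraries without a peak. Klf6 stands between 84 and 92 in every GFP library, and LPS-treated GFP replicate 1 has the lowest value in 11 of the 19 rows.

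At gene starts, Fam117a had 64.57 ± 13.79 (n = 6). Rnd3, the gene of an atypical small GTPase, had 42.36, 64.88 and 73.67 after LPS and 52.02, 63.86 and 65.58 in untreated GFP libraries (mean 60.39 ± 11.23, n = 6). Pakap, an anchoring protein gene, had 58.6 ± 15.7 and Prodh, the gene of mitochondrial proline dehydrogenase, 58.3 ± 13.4 (n = 6 each). Creg2 (55.8 ± 6.94), Sh3bp4, a gene of receptor endocytosis (55.5 ± 6.49), Sorl1, a sorting receptor gene (53.6 ± 10.52), Zfp273 (52.31 ± 15.63) and Pcdh17, a protocadherin gene (50.05 ± 11.39), came next (n = 6 each). The lost regions at the starts of Lmtk3, Ceacam2, Dpysl5, Ptpre, a receptor tyrosine phosphatase gene, and Igsf3 lay between 29.52 and 38.8. In 14 of the 15 the region held the annotated start itself, and at Sh3bp4 it ended before it. Without LPS-treated GFP replicate 1, 25 coding promoters were overlapped by a lost region.

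By position, lost regions were mostly distal. Of the 366, 157 (42.9%) lay in a protein-coding gene, against 65.0% of all regions called in the 6 GFP libraries and 69.6% of those called in all 12 libraries. Within 1000 bp of either end of such a gene lay 35 (9.56%, 95% exact binomial interval 6.75% to 13.05%, counting error only), against 32.3% and 38.8%. More than 50 kb from any protein-coding gene lay 96 (26.2%), against 6.63% and 5.31%. Prominent peaks lie at gene ends more often, so the comparison was repeated among regions between percentiles 30.98 and 53.51. There 8.79% of 182 lost regions lay within 1000 bp of a gene end, against 13.6% of 7198 regions called in all GFP libraries and 632 of 3335 called in all 12. Lost regions were also narrower, with a median of 841 bp against 1480.5 bp for all regions called in the 6 GFP libraries. In the same percentile range the medians were 794 and 1063 bp. Width grows with the number of lists that contribute a peak to a merged region, and lost regions have 6 at most.

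**Figure D4:**
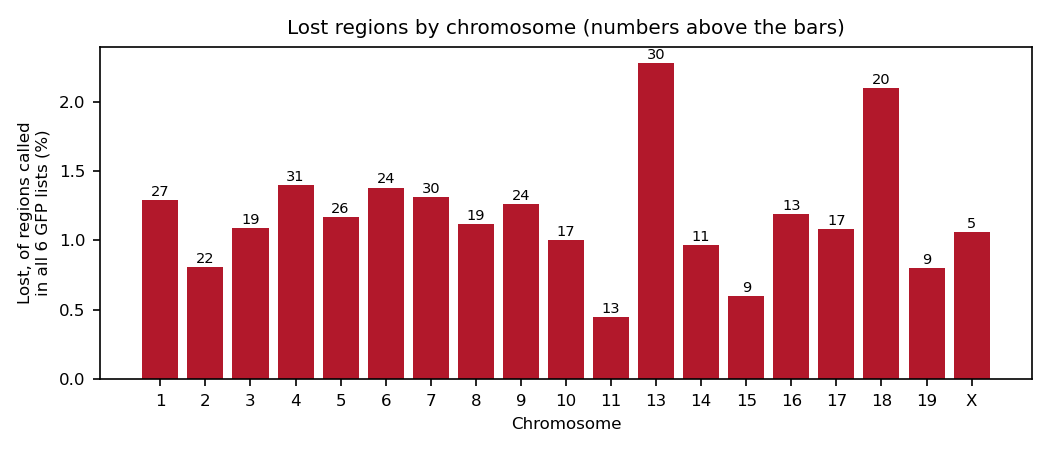
Share of the regions called in all 6 GFP libraries that were lost (bars, %), by chromosome; the number above each bar is the number of lost regions. Chromosomes 13 and 18 have the tallest bars, 2.28% and 2.1%, and chromosome 11 the shortest, 0.448%.

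Lost regions occurred on every chromosome counted, from 5 on X to 31 on chromosome 4. As a share of the regions called in all GFP libraries, chromosome 13 stood highest (30 of 1318, 2.28%), followed by chromosome 18 (20 of 952, 2.1%). Chromosome 11 stood lowest (13 of 2901, 0.448%) although it holds the most such regions. The other 16 lay between 0.597% and 1.4%.

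Most lost regions lay outside runs of at least 3, although pairs of lost regions within 100 kb of each other were not counted as runs. Runs of at least 3 with neighbours at most 100 kb apart numbered 8 and held 29 of the 366 (55 lost regions without LPS-treated GFP replicate 1, 47 without untreated GFP replicate 1, and 6 in lists trimmed to equal length). The largest held 5 regions over 55.1 kb of chromosome 7 (129429571 to 129484710), with Plpp4, which encodes a phospholipid phosphatase, as the nearest gene at 38.2 to 92.0 kb. Their mean percentiles ran from 45.75 to 77.18, and a sixth region between them was called in 5 GFP libraries and no Nur77 library. No Nur77 library had a peak over 175.0 kb there (129332093 to 129507053), a stretch with 8 regions called in at least 3 GFP libraries. A run of 3 on chromosome 13 (44130097 to 44229993), 327.0 kb or more from Cd83, a gene of an activation marker of antigen-presenting cells, lay in 239.1 kb without a Nur77 peak. The 3 lost regions inside Opcml lay in 307.5 kb without one, and 3 around Calcb and Insc in 106.3 kb. Regions called in at least 3 GFP libraries numbered 5 in the Cd83 stretch, 4 in the Opcml stretch and 3 in the Calcb stretch. Every lost region lies in a stretch without a Nur77 peak by the rule, and lengths around other regions are not given.

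In other runs lost regions alternated with regions that had calls in both lines, though not always at a similar rank. Of the 15 other regions in the run of 4 at Pde10a, a gene of a phosphodiesterase (chromosome 17, 8504447 to 8646904), 7 had a Nur77 call, and 1 of them was called in all 12 libraries. That one, 8505580 to 8506774, had percentiles of 34.0 to 61.1 in Nur77 libraries and 72.4 to 85.3 in GFP libraries. Another, 8629020 to 8631631, averaged 27.6 in the 5 Nur77 libraries that called it and 84.5 in the 6 GFP libraries. Not all of the 7 were compared in this way, and these percentiles shift with list length. The 4 lost regions at Plpp3, another lipid phosphatase gene (chromosome 4, 105219460 to 105286761), flanked 2 regions called in all 12. In Ptpn3, 4 regions were lost over 44.0 kb and 1 region between them was called in 4 Nur77 and 5 GFP libraries. The run of 3 at Hspb8, a small heat shock protein gene, spanned 52.4 kb, with 2 regions on one side of the gene and 1 on the other, towards the splicing regulator gene Srrm4. The start of Rnd3 lay with 2 further lost regions in 761.8 kb without a Nur77 peak (chromosome 2, 50842287 to 51604045), where 4 regions were called in at least 3 GFP libraries, so peaks were sparse there in both lines. Genes that held at least 2 lost regions numbered 10 of 143. They were Ptpn3, Opcml, Pde10a, Atxn1, Ccbe1, Cd84, Dpp6, Cd86, Pakap and Ppargc1a. This group was chosen after its values were seen, as were Cd200, Dusp10 and Plpp3 below. Both regions in Cd86, the gene of a costimulatory ligand, were weak (26.64 ± 15.54 and 17.29 ± 18.77, n = 6 each), and those in Cd84, the gene of a signalling lymphocyte family receptor, were stronger (66.03 ± 11.47 and 57.81 ± 8.73, n = 6 each).

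Open sites shared by both lines lay near about as many lost regions as not. The nearest Nur77 peak lay at a median of 11.3 kb, and within 10 kb for 173 of 366 (47.3%). It lay within 200 bp for 1 and within 500 bp for 6, so a peak with shifted borders lay next to few of them. Within 50 kb, 181 lost regions (49.5%) had a region called in all 12 libraries. No matching shares over all regions are given, so these values do not set the lost regions apart from others. Of 696 other regions within 50 kb that were called in all GFP libraries, 457 (65.7%) were called in all 12, against 79.3% of 31338 elsewhere. Those 457 had a median rank of 41.6 in Nur77 libraries and 49.53 in GFP libraries within the set called in all 12. Taken region by region, the median difference, Nur77 minus GFP, was only -1.11 rank points, and 59.5% of them ranked lower in the Nur77 line. Elsewhere the medians were 49.25 and 49.04, the median difference by region was 0.39, and 46.0% ranked lower in the Nur77 line. The same contrast chose the lost regions, so this is a description of their neighbourhood.

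The rule did not contrast LPS with no LPS, but it required a peak in each GFP library, which bound most in LPS-treated replicate 1, the shallowest. The order of the treatments in the GFP line is therefore given as a description. Ranks were taken among the same 32400 regions in each library, so that list length did not enter, and are given as percentiles of that shared set. In 76 lost regions (20.8%) the 3 LPS ranks all lay above the 3 untreated ones, and in 45 (12.3%) all lay below. In the other 245 the treatments overlapped. Among all 32400 regions, 16.5% lay above and 19.2% below. The split thus leaned towards LPS among the lost regions and against it among all, by a few percentage points. In the middle percentile range, 18.7% of lost regions lay above and 10.4% below, against 15.3% and 15.8% of all. The median difference, LPS minus untreated, was 1.29 rank points for lost regions and -1.04 for all. With 3 libraries against 3 a single region cannot reach an exact two-sided p below 0.1. Ranked within whole lists, 32 lay above (8.74%) and 21 below (5.74%), against 10.6% and 7.84% of all regions, so the lean against LPS among all regions turned round and the contrast with the lost regions was gone. Without LPS-treated GFP replicate 1, 143 of 653 lost regions lay above (21.9%) and 101 below (15.5%), against 19.6% and 24.9% of all. Without untreated GFP replicate 1, 128 of 502 lay above (25.5%) and 73 below (14.5%), against 20.3% and 25.2% of all. Without LPS-treated GFP replicate 2, 105 of 470 lay above (22.3%) and 89 below (18.9%), against 20% and 24.6% of all.

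**Figure D5:**
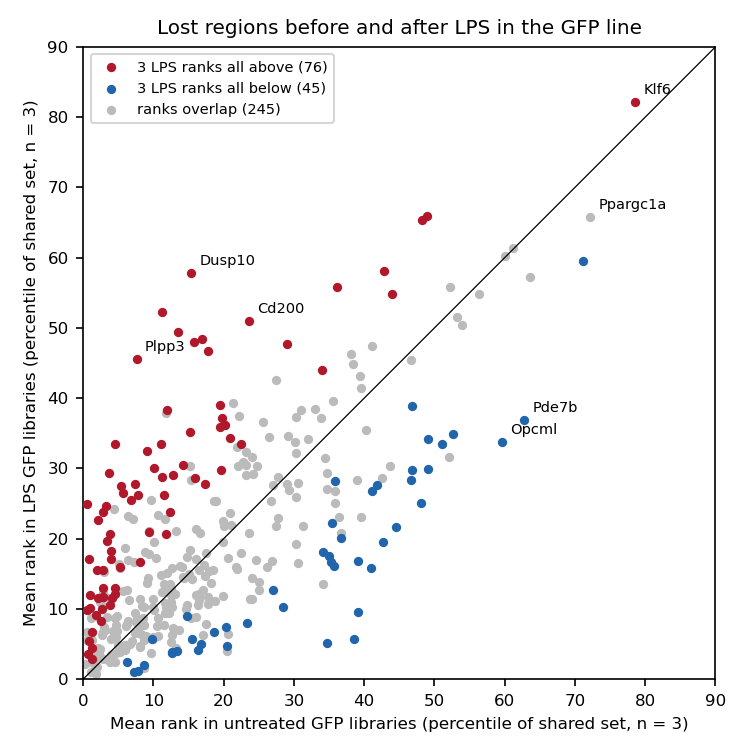
Mean rank of the 366 lost regions in the 3 LPS-treated GFP libraries (vertical) against the 3 untreated GFP libraries (horizontal), as percentiles of the set of regions called in all 6 GFP libraries. Red points (76) have all LPS ranks above the untreated ones, blue points (45) all below, grey points (245) overlap, and the line marks equal ranks. Dusp10 and Plpp3 stand far above the line, and Pde7b and Opcml far below it.

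The 5 regions of highest mean percentile among the 76 are given first. Klf6 had shared-set ranks of 82.88, 82.79 and 80.91 after LPS and 74.75, 80.78 and 80.12 without, so the treatments stood apart by a narrow margin (mean difference 3.64). The region 81.9 kb from Plpp4 had 65.57, 61.77 and 70.27 after LPS and 48.63, 40.58 and 57.44 without, and its neighbour at 92.0 kb had 73.22, 55.45 and 67.29 against 54.89, 40.58 and 49.02. The region 26.6 kb from Hspb8 had 62.48, 57.77 and 53.91 after LPS and 48.63, 48.38 and 31.26 without. That 5.9 kb from Srrm4 had 51.06, 55.45 and 58.1 after LPS and 44.95, 50.33 and 36.38 without.

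The 3 widest differences were at weaker sites. A region 195.4 kb from Dusp10, which encodes a phosphatase of the stress kinases JNK and p38, had 57.13, 51.83 and 64.42 after LPS and 4.9, 18.53 and 22.63 without, a difference of 42.44. The third region of the run beyond Cd83 had 48.68, 49.03 and 59.05 after LPS and 13.57, 11.15 and 9.08 without. A region 25 kb from Plpp3 differed by 37.94. A narrower difference was found at a region 7.6 kb from Cd200, the gene of a ligand that restrains myeloid cells, which had 48.68, 46.03 and 58.1 after LPS and 24.56, 14.83 and 31.26 without. At all of these sites the groups stood well apart. The rule required that none had a peak in any Nur77 library, so their order under LPS in that line cannot be read.

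In the opposite direction, Pde7b had ranks of 34.6, 42.7 and 33.31 after LPS and 67.4, 63.59 and 57.44 without, a difference of -25.94. The region inside Opcml had 31.06, 44.43 and 25.76 after LPS and 53.01, 61.84 and 63.96 without. The stronger region in Cd84 differed by -17.77, and one 21.5 kb from Ms4a8a by -8.03. At the start of Prodh the difference was -22.92. The Plpp4 run held both directions. Its outermost region, 38.2 kb from the gene, had 6.01, 3.52 and 7.41 after LPS and 43.63, 39.34 and 32.54 without, the widest difference downwards (-32.85), while its 2 regions farthest from the gene ranked higher.

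The gene lists held few lost regions. Within 50 kb of 233 matched genes in 19 lists of macrophage, inflammatory, metabolic and other functions lay 1510 regions called in all GFP libraries, of which 7 were lost (0.464%, against 1.13% of all such regions). Without LPS-treated GFP replicate 1 the count was 14, when 1.76% of all such regions were lost. In lists trimmed to the shortest it was 9, when 0.984% of a smaller set, 23674 regions called in all GFP libraries, were lost. The numbers of regions near listed genes under these 2 settings are not given. The counts of 14 and 9 can therefore not be read as shares beside those percentages. Regions near listed genes were not matched to all regions by position or percentile. Among lists of macrophage genes, 0 of 133 regions near macrophage identity genes were lost and 113 were called in all 12 libraries. The count was 0 of 105 for NF-kB signalling, 0 of 89 for Toll-like receptor signalling, 0 of 124 for nuclear receptors, 0 of 76 for the interferon response, 0 of 118 for adhesion and migration, and 0 of 74 for the cell cycle. It was 0 of 125 for the AP-1 family, of which 3 of 15 genes are on chromosome 12 and were not covered. It was 0 of 85 for housekeeping genes and 0 of 20 near neuron markers, 0 of 17 near epithelial ones, 0 of 23 near fibroblast ones, 0 of 15 near B cell ones and 0 of 36 near T cell ones. At a background of 1.13%, a count of 0 in any one of these lists is no result about that list.

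The 7 lay in 5 lists. The Klf6, Ppargc1a (2 regions) and Pde7b regions are given above. A region inside Ctsk, the gene of the bone-resorbing protease cathepsin K (chromosome 3, 95504262 to 95505409), had percentiles of 15.52, 34.88 and 57.04 after LPS and 33.11, 48.8 and 56.97 in untreated GFP libraries. A pair lay in the monocyte chemoattractant cluster on chromosome 11, nearest to Ccl11. The first, 82066790 to 82067514, 19.3 kb from Ccl7 and 29.3 kb from Ccl2, had percentiles of 57.36, 64.88 and 66.52 after LPS and 25.71, 36.43 and 53.16 in untreated GFP libraries, and no treatment overlap. Its shared-set ranks were also apart, with a difference of 26.39. The second, 82072098 to 82074118, was weaker (32.39 ± 19.5, SD, n = 6), with overlapping treatments, and both lay in the same 53.1 kb without a Nur77 peak.

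Just outside the rule stood 323 regions called in 1 Nur77 library and 6 GFP libraries (median GFP percentile 37.18), and 580 called in 0 Nur77 libraries and 5 GFP libraries (median 30.08). The single Nur77 call came from LPS-treated replicate 1 in 113 of the 323 and from untreated replicate 2 in 5, the longest and the shortest Nur77 lists. The missing GFP call was in LPS-treated replicate 1 in 286 of the 580, the shortest GFP list. The strongest with a single Nur77 call lay in Fbxl21 (percentile 15.8 in untreated Nur77 replicate 1, and 79.38 ± 4.4, n = 6, in GFP libraries), 144.6 kb from Mreg (33.98 in LPS-treated Nur77 replicate 3, and 74.01 ± 7.45 in GFP libraries) and in Prkg1 (23.86 in the same Nur77 library, and 71.84 ± 5.75 in GFP libraries). Those in Zfp345 and Ldlrad3 had Nur77 percentiles of 6.39 and 20.75 and GFP means of 70.07 and 69.87. The strongest of the other set lay near Defb29 and Mreg, in Npc1 and Tead1, and 56.6 kb from Mapk10. Their GFP means ran from 60.84 to 65.05, and each lacked a peak only in LPS-treated GFP replicate 1 among the GFP libraries.

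The number of lost regions depended on list length. When every list was trimmed to its 36184 strongest peaks, the length of the shortest, 233 regions met the rule, and 84 of the 366 (23.0%) were among them. The opposite pattern then had 109 regions against 44. The 84 had mean percentiles from 48.06 to 88.69 and included all 20 of the highest-ranking regions. The other 282, with a median of 36.34, could leave only because a GFP peak fell below the trimmed length, since trimming adds no Nur77 peak. Without LPS-treated GFP replicate 1, the shallowest GFP list, 653 regions met the rule.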

How the data were processed

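ATAC-seq was represented by 12 lists of peaks, 1 per library, called separately and given in mm10 coordinates. DiffBind 3.0.15 and cutadapt 2.6 are named in the submitters' processing notes; which aligner and which caller were used is not given in the sources used here. The names of the deposited peaks carry the tags mapQ20, woMT, dedup and qValue0.001, read here as a mapping quality cut of 20, filtering of mitochondrial and of duplicate reads, and a q-value cut of 0.001. The deposited score is the authors' whole number per peak and was not used. The deposited fold is the authors' ratio of the summit to the caller's background, and the -log10 p and -log10 q are the authors' values at the summit. They served to rank or describe peaks within a list.

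Rows of equal start and end were collapsed to 1 peak, keeping the strongest. Peaks overlapping or touching by at least 1 bp or end to end were merged on chromosomes 1 to 11, 13 to 19 and X, and starts are printed 1-based. Percentiles are ranks by -log10 q within a list. A background height per library is the value b that makes fold times (b + 1) a whole number (within 0.1 reads, for 100.0% of folds below 60), and reads at a summit are that number minus 1. The step was tested on simulated lists, as was the rule. Distances are to the spans of 21887 protein-coding RefSeq genes of GRCm38.p6, and promoters come from the RefSeq table of that build. Replicate numbers follow the titles. No test was run, because the calls chose the regions.

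The regions, gene lists and most comparisons were chosen with earlier results of these data known. Regions named are the 20 of highest mean GFP percentile, up to 12 at coding promoters, those within 50 kb of a listed gene, runs, the 5 highest in each LPS direction, and the 5 highest just outside the rule on each side; the other names were chosen after their values were seen. An item that these rules would name is not reported here. Python 3.11.15, numpy 2.4.6, pandas 2.3.3 and matplotlib 3.10.9 were used.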

Additional observations from a re-analysis of the deposited data

Results flagged for a closer look

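Chromosome 12 was outside the comparisons above. There, 66 regions had a peak in 0 of 6 Nur77 libraries and in 6 of 6 GFP libraries, 3.93% of the 1679 called in all GFP libraries, against 1.13% on the other chromosomes. The opposite pattern had 0 regions there, against 44 elsewhere. Each group held 3 libraries, too few for a search for outlying libraries.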

How the results depend on the processing

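The lost regions numbered 366 in the lists as deposited, with 44 of the opposite pattern. They numbered 233 and 109 in lists trimmed to the shortest, 147 and 65 among the strongest 20000 peaks of each list, and 208 and 34 at a -log10 q of at least 10. Of the 366, 84, 7 and 100 were among these. Regions in runs numbered 6, 0 and 12 under the same settings, against 29. Regions ranking higher after LPS numbered 37 among the strongest 20000 peaks and 44 at a -log10 q of at least 10, against 76, and regions ranking lower 20 among the strongest 20000 peaks, against 45. As shares of the lost regions, those ranking higher were 25.2% and 21.2%, against 20.8%, since fewer regions were lost. Of all regions, 16.2% and 16.9% ranked higher. Lost regions ranking lower made up 13.6% and 18.3%, against 12.3% (18.1% and 19.7% of all regions). At a -log10 q of at least 10 the split was thus 44 higher and 38 lower. With ranks within whole lists, 32 ranked higher and 21 lower, both below the shares of all regions. Within 100 kb of a listed gene lay 12 lost regions, against 7 within 50 kb, and 21.0% lay within 5000 bp of a gene end, against 9.56% within 1000 bp.

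A -log10 q of at least 5 (322 lost), a peak covering at least 25% of the region (399) and merging across 200 bp (366) kept every count within 1.5 times. Ranking by the authors' fold gave the same 76 and 45. With 1 library left out, lost regions ranged from 372 to 653, the opposite pattern from 44 to 75, median percentiles from 36.11 to 40.71, gene-end shares from 8.12% to 10.2%, regions ranking higher after LPS from 77 to 143 and lower from 45 to 101, regions in runs from 29 to 55, those near listed genes from 7 to 14 and those at coding promoters from 15 to 25. The highest values of the counts came without LPS-treated GFP replicate 1, except the opposite pattern, which was highest without untreated Nur77 replicate 2. Without untreated GFP replicate 1, 128 ranked higher, 73 lower and 47 lay in runs, and without LPS-treated GFP replicate 2, 89 ranked lower. Without untreated Nur77 replicate 2 and LPS-treated GFP replicate 3 together, chosen after seeing the data, 379 regions were lost and 123 had the opposite pattern. All 20 highest-ranking regions met the rule under these settings except among the strongest 20000 peaks, where 7 did. No paired analysis was possible because the counts come from no test that could hold a replicate block, and same-numbered libraries share only a number. The cause of these shifts was not tested beyond what trimming and fewer libraries do by construction. Depth limits every absence, since the weakest listed peaks had 5 to 8 reads.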
